A study of Anguilla japonica with 6 samples.

Results

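The genes described here build, anchor and cut the extracellular matrix: collagens, laminins, adhesive glycoproteins, elastic fibre proteins, small proteoglycans, integrins, matrix metalloproteinases, ADAMTS proteases and the enzymes that fold or cross-link collagen. They were picked by gene symbol alone, from the leading letters of each family's names, by a rule that uses no measured value, although the families were picked with earlier results of these data known. The rule found 129 of the 32359 genes in the table. They fall into 10 fibrillar collagens, 7 basement membrane collagens, 21 other collagens, 11 laminins, 15 adhesive and matricellular glycoproteins, 5 elastic fibre proteins, 4 small leucine-rich proteoglycans, 11 integrin alpha subunits, 6 integrin beta subunits, 17 matrix metalloproteinases, 13 ADAMTS proteases and ADAMTS-like proteins, and 6 collagen chaperone and lysyl oxidase genes. A further 3 genes carry a matching symbol without belonging to these families (itgb1bp1, itgbl1 and loxhd1b). Genes that the table lists only by a LOC identifier could not be matched, and no symbol for fibronectin, integrin beta 1 or a tissue inhibitor of metalloproteinases was matched. Those genes were not analysed here.

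RNA-seq was done on pituitaries of female Japanese eel (Anguilla japonica), with 3 libraries from matured fish and 3 from pre-matured fish. The comparison asks which of these genes differ between the pituitaries of matured and pre-matured females. The labels name no treatment, genotype or batch, and they do not say whether the fish matured in nature or after hormone injection, which cannot be told apart here. Nothing beyond the sample titles says that each library came from its own animal, so the p-values measure the spread between these samples.

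The extracellular matrix surrounds the cords of hormone cells and the dense capillary bed of the pituitary. Collagen IV and laminins form the basement membrane that both hormone cells and endothelium rest on, while fibrillar collagens form the stroma. Integrins are pairs of an alpha and a beta subunit that hold cells to this matrix, and membrane-bound or secreted metalloproteinases cut it.

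Values are FPKM, in which reads are divided by gene length and by library depth, so that levels can be set side by side between genes. Depth rebuilt from the values was 16033675, 19619964 and 16257326 reads in matured libraries and 19276653, 18600632 and 18206029 reads in pre-matured libraries. Correlations of log2 values across genes were 0.920 to 0.947 within a group and 0.780 to 0.825 across groups. The tissue label fitted the values: 11 pituitary endocrine marker genes summed to between 17992 and 44104 FPKM in the matured libraries and between 3722 and 3874 FPKM in the pre-matured libraries. Growth hormone, gh1, made up 62.1% of that sum. The markers did not all move together. Of the 9 that passed the filter given below, log2 differences were positive for 6 and negative for 3.

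Of the 129 matrix genes, 65 reached 1 FPKM in at least 3 libraries and were tested with limma on log2(FPKM + 1), together with all 17887 genes that passed this filter. Of the 64 not tested, 41 stayed under 1 FPKM in every library and 23 reached it in 1 or 2 libraries. At a Benjamini-Hochberg adjusted p under 0.05, 14 matrix genes were higher and 6 were lower in matured pituitaries. Of all genes tested, 23.4% were higher and 10% were lower (33.4% in all), and the shares of the matrix genes, 21.5% and 9.23%, lay close to that background. The median log2 fold change of the tested matrix genes was 0.22, against 0.23 for all genes tested. Of the tested genes with a symbol, from which the matrix genes come, 21.9% were higher and 10.6% were lower (32.5% in all). The 3 genes that passed the filter through the matured libraries alone (serpinh1a, itga7 and adamts10), and the 1 that passed through the pre-matured libraries alone (mmp21), had to differ between the groups, so their separation and their calls are no support. In bulk tissue, fewer cells of a type and less RNA per cell cannot be told apart.

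The matured and pre-matured libraries did not overlap for 25 of the 65 tested matrix genes, against 49.2% of all genes tested and 49.6% of those with a symbol. Of the 65, the matured libraries were the higher group without overlap for 17, against 33.3% of all genes tested and 32.3% of those with a symbol. They were the lower group for 8 of the 65, against 15.9% of all genes tested and 17.3% of those with a symbol. Together the 129 genes held 0.129% to 0.160% of the FPKM total in matured libraries and 0.0958% to 0.128% in pre-matured libraries. The ranges of this share did not overlap, but the summed FPKM of the same genes did, at 835, 802 and 703 FPKM in the matured libraries and 802, 794 and 614 FPKM in the pre-matured libraries. The FPKM totals that the share divides by were 500088 to 545149 in matured and 620732 to 713023 in pre-matured libraries.

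**Figure D1:**
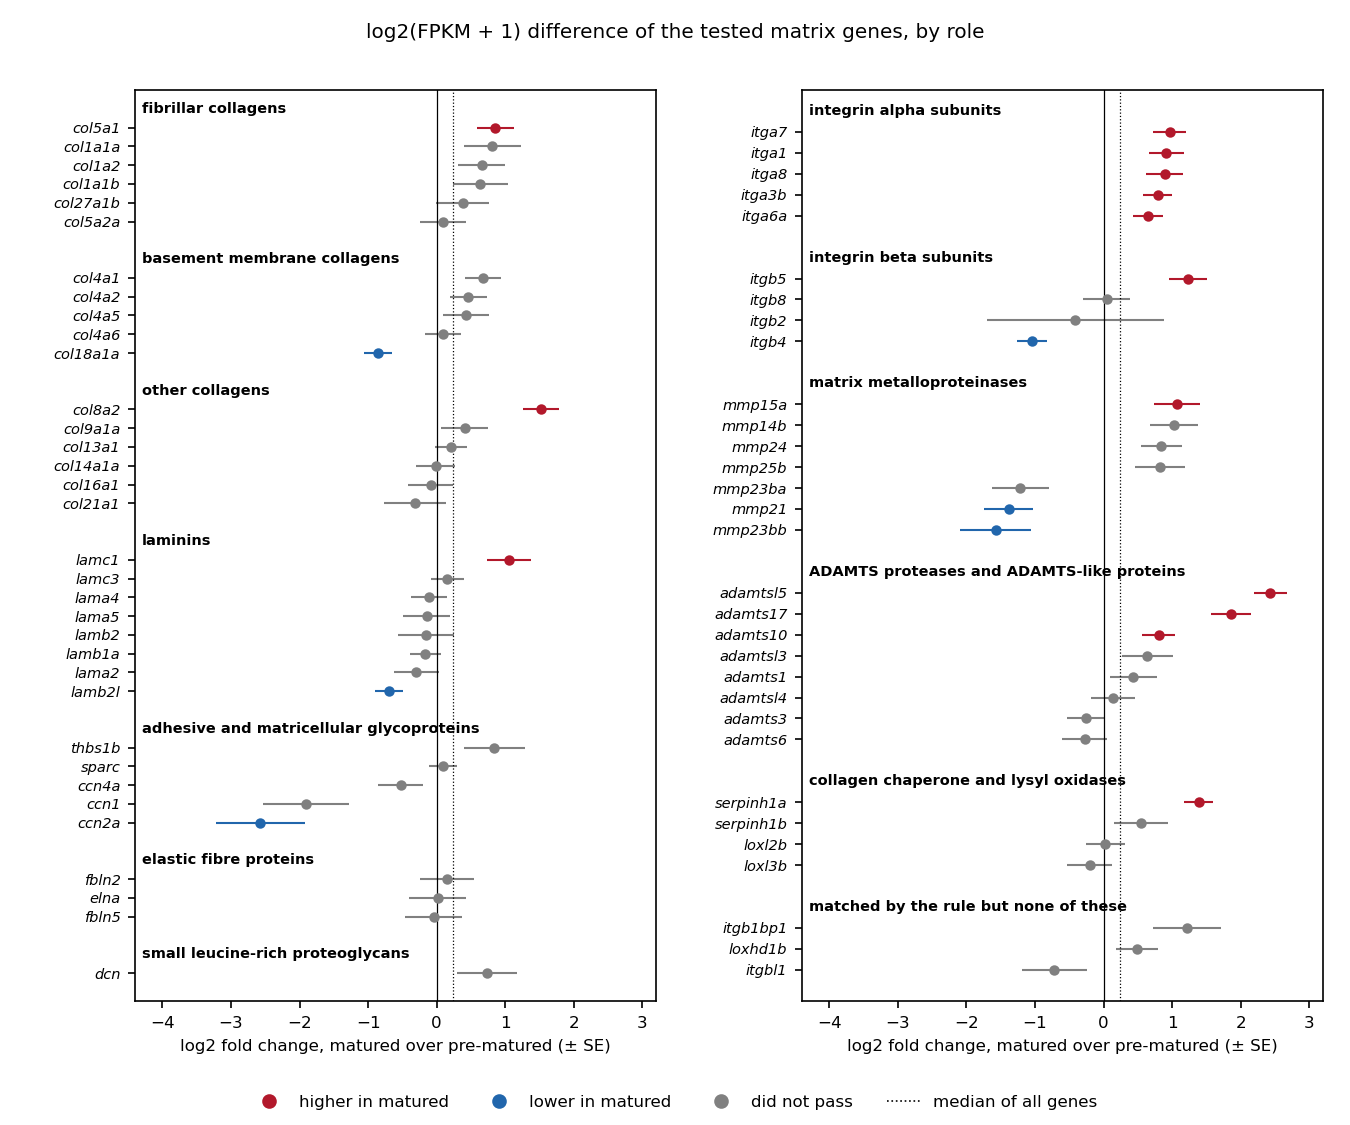
Log2 fold change of each tested matrix gene, matured over pre-matured on the log2(FPKM + 1) scale, with its standard error, grouped by role. All 5 tested integrin alpha subunits lie to the right of the dotted median of all genes (0.23), while ccn2a, at -2.57, lies farthest to the left.

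The balance between higher and lower calls depended on how libraries were scaled. With FPKM as deposited, 70.0% of the matrix calls were higher, against 85.7% with TPM or with library totals that leave out genes above 1% of the total (the reduced totals), 57.1% with voom on rebuilt reads, 50% with median-ratio scaling and 38.5% with quantile normalization. For all genes the same share was 70.0%, 85.6% with TPM or with the reduced totals, 53.5% with voom, 54.2% with median-ratio scaling and 52.5% with quantile normalization. Over all genes the median log2 fold change was 0.23 as deposited, 0.54 with TPM, 0.50 with the reduced totals, 0.04 with voom, 0.03 with median-ratio scaling and 0.00 with quantile normalization. Of the 20 matrix calls, 8 passed under all 5 of these settings, namely adamtsl5, adamts17, col8a2, serpinh1a and itgb5, which were higher, and itgb4, ccn2a and mmp21, which were lower. Of these 8, serpinh1a and mmp21 passed the filter through a single group. Only adamtsl5, adamts17, itgb4, col8a2 and serpinh1a also passed under every other alternative run in which they were tested.

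**Figure D2:**
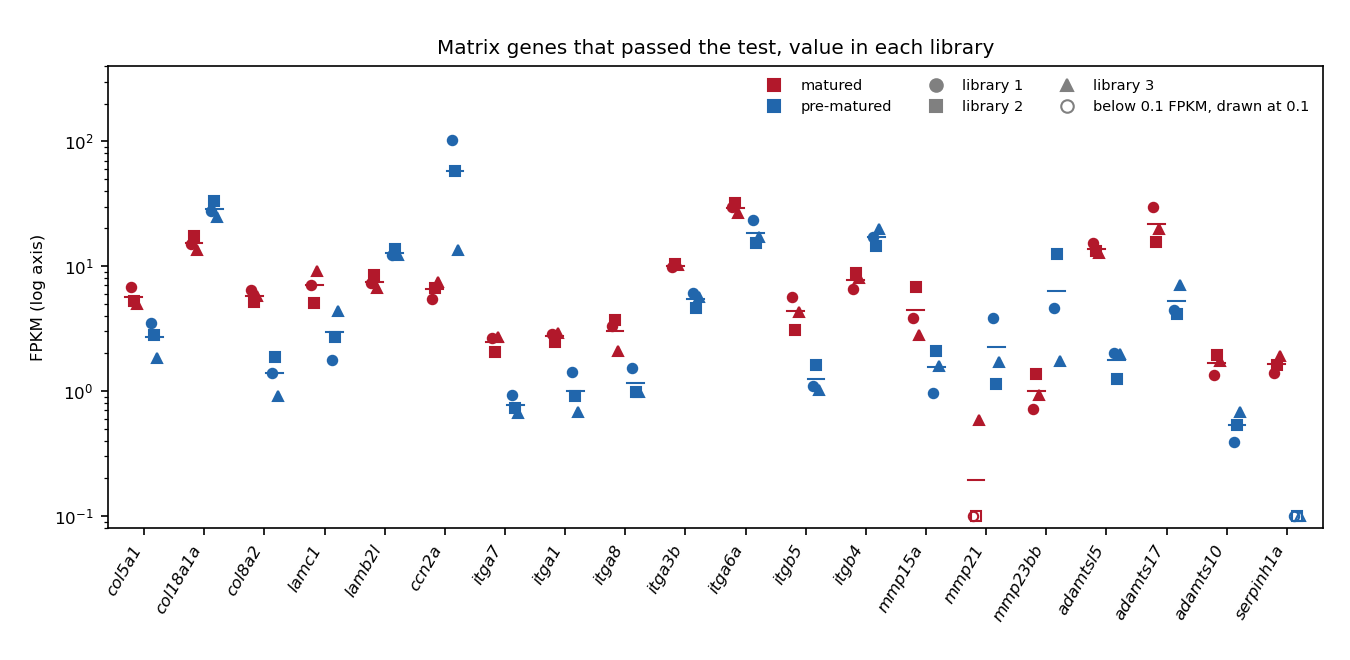
FPKM on a log axis in each of the 3 matured and 3 pre-matured libraries for the 20 matrix genes that passed the test, with a dash at the group mean (no dash where the mean lies below 0.1 FPKM). The groups are set apart without overlap for every gene drawn, widely for adamtsl5 and narrowly for itga6a.

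Collagen I, the main fibre of connective tissue, was the most abundant fibrillar collagen in these pituitaries. A pair of genes here carries the symbol of its alpha 1 chain. The more abundant copy, col1a1b, stood at 42.3, 31.5 and 16.5 FPKM in the matured libraries against 18.2, 27.04 and 11.2 FPKM in the pre-matured libraries. The groups overlapped, with matured 3 below pre-matured 1 and 2, and the log2 difference of 0.64 ± 0.40 (SE) did not pass (limma adjusted p = 0.252). The other copy and the alpha 2 chain were chosen for naming after their values were seen. Copy col1a1a read 25.4, 26.8 and 11.9 FPKM in the matured libraries and 11.2, 18.7 and 6.28 FPKM in the pre-matured libraries (log2 difference 0.81, limma adjusted p = 0.169). The alpha 2 chain, col1a2, read 24.1, 23.8 and 10.3 FPKM in the matured libraries and 9.88, 15.2 and 9.16 FPKM in the pre-matured libraries. Its log2 difference was 0.66 (limma adjusted p = 0.178). Matured 3 had the lowest matured value for all 3 chains. Without matured 3, col1a2 passed (log2 difference 1.04, limma adjusted p = 0.0350).

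In mammals collagen I is a trimer of a pair of alpha 1 chains and 1 alpha 2 chain. Which trimers form in the eel was not tested. The summed level of col1a1a and col1a1b was 2.81, 2.45 and 2.77 times that of col1a2 in matured libraries. In pre-matured libraries it was 2.98, 3.01 and 1.91 times. These ratios within a library do not depend on scaling, and the groups overlapped. They were chosen after the values were seen and were not tested.

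Collagen V nucleates and thins collagen I fibrils. Its alpha 1 chain, col5a1, was the fibrillar collagen that passed the test, at 6.79, 5.24 and 5.01 FPKM in the matured libraries and 3.51, 2.83 and 1.84 FPKM in the pre-matured libraries. All matured values lay above all pre-matured ones, and the mean was 2.08 times as high (log2 fold change 0.86 ± 0.27 SE, limma adjusted p = 0.0390). The call was lost with quantile normalization, median-ratio scaling and voom (limma adjusted p = 0.0685 to 0.194), with no filter (limma adjusted p = 0.0588), and without any 1 library other than pre-matured 1 (limma adjusted p = 0.0649 to 0.141). Its partner chain col5a2a, chosen after its values were seen, averaged 5.62 ± 0.452 FPKM in matured and 5.69 ± 3.35 FPKM in the pre-matured libraries (SD, n = 3 each). The summed level of all 10 fibrillar collagens was 107, 97.1 and 53.5 FPKM in the matured libraries and 49.1, 82.5 and 33.5 FPKM in the pre-matured libraries, which overlapped. Of the 6 fibrillar collagens tested, 1 was higher and none was lower, against 23.4% higher and 10% lower of all genes tested.

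**Figure D3:**
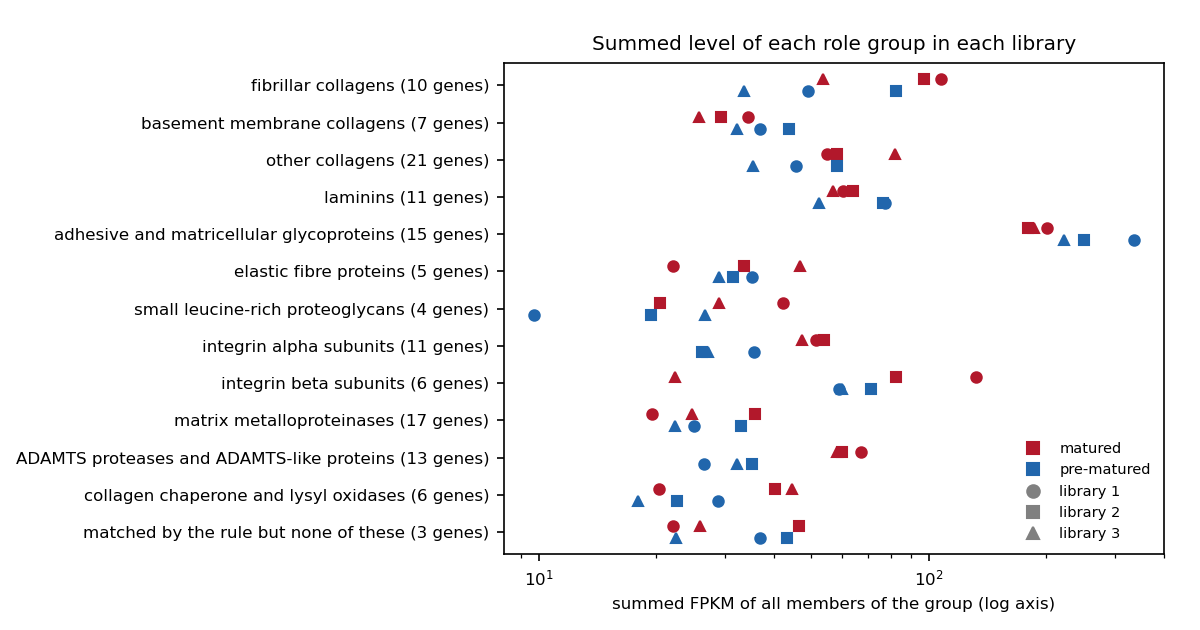
Summed FPKM of all members of each role group, on a log axis, in each matured and pre-matured library (library number by marker shape). The integrin alpha sums (47.4 to 54.0 FPKM matured, 26.2 to 35.7 FPKM pre-matured) and the ADAMTS sums (58.3 to 66.8 FPKM matured, 26.6 to 35.3 FPKM pre-matured) are separate between groups, as are those of the glycoproteins, where the matured sums are the lower ones.

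Among collagens of the basement membrane, the collagen XVIII gene was lower and no collagen IV chain passed the test. Collagen XVIII is a heparan sulfate bearing collagen whose C-terminal end is the source of endostatin, a fragment known in mammals to restrain vessel growth. Its gene col18a1a, the most abundant of this group, stood at 15.01, 17.4 and 13.6 FPKM in the matured libraries against 27.6, 33.3 and 24.6 FPKM in the pre-matured libraries. The highest matured value was below the lowest pre-matured value, and the group means were 15.3 ± 1.94 FPKM in matured and 28.5 ± 4.39 FPKM in the pre-matured libraries (SD, n = 3 each; log2 fold change -0.85 ± 0.20 SE, limma adjusted p = 0.0145). The call was lost with TPM and with the reduced totals (limma adjusted p = 0.110 and 0.0755), and without matured 1 or matured 3 (limma adjusted p = 0.0516 and 0.0559). It held with voom, median-ratio scaling and quantile normalization.

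Collagen IV chains lie in pairs in vertebrate genomes and assemble into the basement membrane network, and the 4 tested chains were chosen for naming after their values were seen. Chain col4a1 read 4.48, 2.86 and 3.30 FPKM in the matured libraries and 1.48, 2.17 and 1.804 FPKM in the pre-matured libraries. The groups did not overlap, but the log2 difference of 0.68 ± 0.26 (SE) did not pass (limma adjusted p = 0.0756). It passed with TPM and with the reduced totals (limma adjusted p = 0.0332 and 0.0258). Its partner col4a2 overlapped between groups, at 3.87, 2.82 and 4.16 FPKM in the matured libraries and 2.20, 3.15 and 1.76 FPKM in the pre-matured libraries (log2 difference 0.46, limma adjusted p = 0.220). The ratio of col4a1 to col4a2 was 1.16, 1.01 and 0.794 in matured libraries and 0.672, 0.689 and 1.03 in pre-matured libraries, again with overlap. Chains col4a5 and col4a6 averaged 3.06 ± 0.828 and 3.13 ± 0.980 FPKM in the matured libraries and 2.10 ± 0.989 and 2.81 ± 0.112 FPKM in the pre-matured libraries (SD, n = 3 each). Neither passed (limma adjusted p = 0.344 for col4a5 and 0.817 for col4a6). The levels of these 2 chains were close to equal in every library but pre-matured 3, where col4a5 was at 0.350 of col4a6.

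Collagen VIII, a short-chain collagen of the vessel wall and of Descemet's membrane, had 1 chain gene that rose. Its alpha 2 chain gene col8a2 stood at 6.48, 5.14 and 5.74 FPKM in the matured libraries against 1.39, 1.86 and 0.906 FPKM in the pre-matured libraries. The lowest matured value was above all pre-matured values, the mean was 4.17 times as high, and the log2 fold change was 1.52 ± 0.26 (SE, limma adjusted p = 0.00400). The partner chain col8a1a missed the filter and was chosen after its values were seen. It read 1.29, 1.501 and 0.271 FPKM in the matured libraries, or 103, 147 and 22 reads, and 0, 0 and 0.0110 FPKM in the pre-matured libraries, a single read in all. Scaled to depth, the 272 reads in matured libraries against 1 in pre-matured libraries gave a ratio of 294, with a 95% counting interval of 52.3 to 11649 that covers counting error only. Both collagen VIII chains read higher in every matured library than in any pre-matured one, as did 33.3% of all genes tested. Since col8a1a was picked by its values, its separation adds no support.

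The most abundant of the remaining collagens was col13a1, a transmembrane collagen of cell contacts. It averaged 27.6 ± 1.87 FPKM in matured and 24.2 ± 7.01 FPKM in the pre-matured libraries (SD, n = 3 each; log2 difference 0.22 ± 0.23 SE, limma adjusted p = 0.508). Of the 21 other collagens, 6 were tested, 1 was higher and none was lower, against 23.4% higher and 10% lower of all genes tested. One that was not tested, col17a1a, was listed at 0 in every library.

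Laminins are trimers of an alpha, a beta and a gamma chain. The gamma 1 chain, shared by most laminins, rose, and a gene named as beta 2-like fell. The gene lamc1 stood at 7.09, 5.05 and 9.18 FPKM in the matured libraries against 1.78, 2.70 and 4.397 FPKM in the pre-matured libraries. The groups did not overlap and the mean was 2.40 times as high (log2 fold change 1.06 ± 0.32 SE, limma adjusted p = 0.0357). Its call was lost with quantile normalization, median-ratio scaling, voom and no filter (limma adjusted p = 0.0541 to 0.105), and without matured 1, matured 3, pre-matured 1 or pre-matured 2 (limma adjusted p = 0.0742 to 0.124). The gene lamb2l stood at 7.38, 8.44 and 6.66 FPKM in the matured libraries against 12.3, 13.8 and 12.2 FPKM in the pre-matured libraries. All matured values lay below all pre-matured ones (log2 fold change -0.70 ± 0.20 SE, limma adjusted p = 0.0291). That call was lost with TPM and the reduced totals (limma adjusted p = 0.225 and 0.172), and without any matured library or without pre-matured 2 (limma adjusted p = 0.0519 to 0.103).

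The most abundant laminin chain, lamb1a (beta 1), averaged 17.6 ± 2.81 FPKM in matured and 19.97 ± 3.98 FPKM in the pre-matured libraries (SD, n = 3 each; limma adjusted p = 0.600). Its log2 difference was -0.17 as deposited and 0.15 with TPM. With the gamma 1 gene higher and the beta 1 gene about level, lamc1 ran at 0.410, 0.246 and 0.615 of lamb1a in matured libraries and at 0.0774, 0.126 and 0.285 in pre-matured libraries. Matured 2 lay below pre-matured 3 in that ratio, which was not tested. The 3 tested alpha chain genes, lama2, lama4 and lama5, had log2 differences of -0.30, -0.11 and -0.14, and none passed (limma adjusted p = 0.512 to 0.776; chosen after their values were seen). Of the 8 laminin genes tested, 1 was higher and 1 was lower, against 23.4% higher and 10% lower of all genes tested. The median log2 difference of these laminin genes, -0.15, turned to 0.16 with TPM.

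Matricellular proteins signal to cells from the matrix without building it. Of 5 adhesive and matricellular genes tested, 1 fell and none rose, against 10% lower and 23.4% higher of all genes tested. The gene that fell, ccn2a, encodes connective tissue growth factor, a target of TGF-beta and of the YAP and TAZ coactivators. It stood at 5.48, 6.65 and 7.53 FPKM in the matured libraries against 103, 58.2 and 13.4 FPKM in the pre-matured libraries. The matured libraries were close to each other and the pre-matured ones spread widely, with no overlap (log2 fold change -2.57 ± 0.65 SE, limma adjusted p = 0.0222). The call was lost without matured 1, matured 2 or pre-matured 2 (limma adjusted p = 0.0649, 0.0630 and 0.0604).

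The related gene ccn1 (CYR61), another YAP target, was chosen after its values were seen. It read 12.6, 7.74 and 5.82 FPKM in the matured libraries and 99.5, 16.9 and 23.0 FPKM in the pre-matured libraries. The groups did not overlap, but the log2 difference of -1.91 ± 0.63 (SE) missed the threshold (limma adjusted p = 0.0519). It passed with 4 other settings, with limma adjusted p between 0.0428 and 0.0482, and without pre-matured 1 or pre-matured 2 (limma adjusted p = 0.0417 and 0.0283). Pre-matured 1 had the highest value of both genes, and it was also the library with the most of the red cell marker alas2, which encodes the first enzyme of haem synthesis in red cells. That gene read 2.39, 3.04 and 3.40 FPKM in the matured libraries and 76.6, 7.12 and 14.97 FPKM in the pre-matured libraries. The part of red cells in the ccn2a and ccn1 values was not tested. Without pre-matured 1, ccn2a stayed lower (log2 fold change -1.96, limma adjusted p = 0.0455), and so did alas2 (log2 fold change -1.54).

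By far the most abundant matrix gene was sparc, which encodes osteonectin, a collagen-binding glycoprotein. It made up 15.7% to 28.9% of the summed FPKM of all 129 genes. It averaged 166 ± 12.6 FPKM in matured and 157 ± 27.4 FPKM in the pre-matured libraries (SD, n = 3 each), and did not pass (log2 difference 0.09 ± 0.20 SE, limma adjusted p = 0.746). None of the 3 elastic fibre genes tested passed. The leading one, fbln2 (fibulin 2, a binder of elastin and basement membrane proteins), averaged 20.7 ± 9.82 FPKM in matured and 18.4 ± 7.14 FPKM in the pre-matured libraries (SD, n = 3 each; limma adjusted p = 0.791). The single small leucine-rich proteoglycan tested was dcn (decorin, a regulator of collagen fibril width). It stood at 38.9, 16.6 and 27.7 FPKM in the matured libraries against 7.68, 18.6 and 24.6 FPKM in the pre-matured libraries. The groups overlapped (log2 difference 0.74 ± 0.44 SE, limma adjusted p = 0.232).

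All 5 integrin alpha subunits that were tested were higher in matured pituitaries, and their groups did not overlap. Of all genes tested, 23.4% were higher and 33.3% were higher without overlap. One of the 5, itga7, reached 1 FPKM in matured libraries alone, so the filter fixed its direction and its separation. The most abundant was itga6a, the alpha 6 subunit of laminin receptors, at 29.7, 31.8 and 26.5 FPKM in the matured libraries and 23.3, 15.2 and 17.2 FPKM in the pre-matured libraries. Means were 29.3 ± 2.65 FPKM in matured and 18.6 ± 4.22 FPKM in the pre-matured libraries (SD, n = 3 each; log2 fold change 0.65 ± 0.22 SE, limma adjusted p = 0.0470). Another laminin receptor subunit, itga3b (alpha 3), stood at 9.76, 10.3 and 10.2 FPKM in the matured libraries against 6.09, 4.63 and 5.63 FPKM in the pre-matured libraries. Its libraries were tight in both groups (log2 fold change 0.79 ± 0.21 SE, limma adjusted p = 0.0212).

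The remaining 3 alpha subunits were expressed at lower levels. The gene itga7 (alpha 7, a laminin receptor best known from muscle) read 2.66, 2.05 and 2.70 FPKM in the matured libraries and 0.928, 0.734 and 0.669 FPKM in the pre-matured libraries (log2 fold change 0.96 ± 0.24 SE, limma adjusted p = 0.0163). The collagen receptor subunit itga1 (alpha 1) read 2.87, 2.47 and 2.89 FPKM in the matured libraries and 1.43, 0.905 and 0.684 FPKM in the pre-matured libraries (log2 fold change 0.91 ± 0.26 SE, limma adjusted p = 0.0258). All pre-matured values of both genes lay below the lowest matured value. The subunit itga8 (alpha 8, a receptor for matrix ligands with an RGD motif) averaged 3.03 ± 0.820 FPKM in matured and 1.16 ± 0.312 FPKM in the pre-matured libraries (SD, n = 3 each; log2 fold change 0.89 ± 0.27 SE, limma adjusted p = 0.0367). A further 6 alpha subunit genes were not tested, of which 5 stayed under 1 FPKM in every library. The exception was itga2b, which reached 1.45 FPKM in matured 2.

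The summed level of all 11 alpha subunit genes was 51.4, 54.0 and 47.4 FPKM in the matured libraries and 35.7, 26.2 and 27.1 FPKM in the pre-matured libraries. The count of 5 higher genes depended on scaling and on single libraries. It was 5 with TPM and the reduced totals, 3 with voom, 1 with median-ratio scaling (itga7, whose direction the filter fixed) and 0 with quantile normalization (limma adjusted p = 0.0884 to 0.180). The count was 0, 1 and 1 without matured 1, 2 and 3, and 5, 1 and 2 without pre-matured 1, 2 and 3. With no filter, 3 of 11 were higher.

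Of the integrin beta subunits, 1 rose and 1 fell among 4 tested, against 23.4% higher and 10% lower of all genes tested. The subunit itgb5 (beta 5, a partner of alpha V in vitronectin receptors) stood at 5.61, 3.08 and 4.32 FPKM in the matured libraries against 1.10, 1.61 and 1.01 FPKM in the pre-matured libraries. The mean was 3.50 times as high with no overlap (log2 fold change 1.23 ± 0.28 SE, limma adjusted p = 0.0119). The call was lost without matured 1 (limma adjusted p = 0.0518). The subunit itgb4 (beta 4), the partner of alpha 6 in the hemidesmosomes that tie epithelial cells to the basement membrane, stood at 6.58, 8.78 and 8.05 FPKM in the matured libraries against 17.1, 14.5 and 19.8 FPKM in the pre-matured libraries. Every matured value was well below every pre-matured one (log2 fold change -1.04 ± 0.22 SE, limma adjusted p = 0.00831), and the call held under all 17 alternatives.

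Since alpha 6 pairs with beta 4 or with beta 1, the ratio of itga6a to itgb4 was formed within each library after both values were seen. It was 4.51, 3.62 and 3.29 in matured libraries and 1.37, 1.05 and 0.867 in pre-matured libraries, means of 3.81 ± 0.628 in matured and 1.09 ± 0.252 in pre-matured libraries (SD, n = 3 each). The groups were far apart, and the ratio does not depend on scaling. It was not tested, since its members were chosen for their differences. Integrin beta 1 itself was not analysed here.

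**Figure D4:**
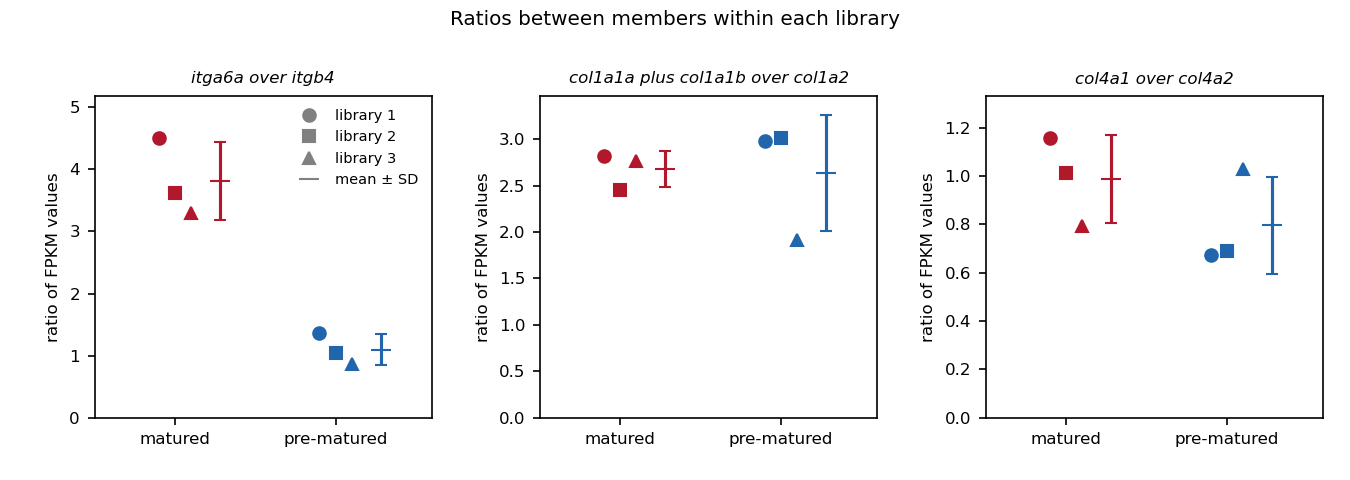
Ratios of FPKM between matrix genes within each matured and pre-matured library, with the mean and SD of each group. The itga6a to itgb4 ratio is 3.29 to 4.51 in matured and 0.867 to 1.37 in pre-matured libraries, while the collagen I and collagen IV ratios overlap.

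The beta 2 subunit gene itgb2, whose protein is found on leukocytes, had the largest standard error of the 65 tested matrix genes. It read 108, 61.4 and 1.504 FPKM in the matured libraries and 34.8, 47.2 and 22.2 FPKM in the pre-matured libraries. Matured 3 stood far below all others, and the log2 difference was -0.41 ± 1.29 (SE, limma adjusted p = 0.830). Without matured 3 it was 1.27 and passed (limma adjusted p = 0.0430). The summed level of 8 leukocyte markers did not follow it, at 569, 703 and 614 FPKM in the matured libraries and 541, 745 and 1006 FPKM in the pre-matured libraries, 77.9% of it from cd74b. The pan-leukocyte gene ptprc (CD45) read 5.96, 9.56 and 4.32 FPKM in the matured libraries and 5.07, 10.1 and 6.24 FPKM in the pre-matured libraries. Of the 6 tested leukocyte markers, 1 was higher (csf1ra), against 23.4% of all genes tested. Log2 differences of the 6 were positive for 2 and negative for 4. No leukocyte marker passed with quantile normalization, median-ratio scaling, voom or no filter, or without any 1 library other than pre-matured 3.

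Of 7 tested matrix metalloproteinases, 1 rose and 2 fell, against 23.4% higher and 10% lower of all genes tested. The gene that rose, mmp15a, encodes a membrane-anchored collagenase (MT2-MMP). It stood at 3.87, 6.76 and 2.82 FPKM in the matured libraries against 0.961, 2.10 and 1.599 FPKM in the pre-matured libraries (log2 fold change 1.06 ± 0.34 SE, limma adjusted p = 0.0398). The groups did not overlap, but the call was lost with quantile normalization, voom and no filter (limma adjusted p = 0.0562 to 0.0963), and without matured 1, matured 2, pre-matured 1 or pre-matured 3 (limma adjusted p = 0.0735 to 0.127).

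Other genes of the membrane type (MT-MMP) did not pass. The most abundant metalloproteinase, mmp14b (MT1-MMP, the main pericellular collagenase in mammals), read 8.25, 6.06 and 10.97 FPKM in the matured libraries and 5.89, 3.42 and 2.05 FPKM in the pre-matured libraries. The groups did not overlap, and the log2 difference of 1.03 ± 0.35 (SE) missed the threshold narrowly (limma adjusted p = 0.0501). It passed with TPM and the reduced totals (limma adjusted p = 0.0139 and 0.0138). The gene mmp24 (MT5-MMP, known from neural tissue) was chosen after its values were seen and averaged 2.64 ± 0.863 FPKM in matured and 1.03 ± 0.544 FPKM in the pre-matured libraries (SD, n = 3 each; log2 difference 0.84, limma adjusted p = 0.0603).

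The genes that fell were mmp21 and mmp23bb. The gene mmp21, a secreted metalloproteinase known for its part in left-right patterning of the embryo, was listed at 0, 0 and 0.586 FPKM in the matured libraries, or 0, 0 and 25 reads. In pre-matured libraries it read 3.88, 1.148 and 1.70 FPKM, or 196, 56 and 81 reads. The groups did not overlap (log2 fold change -1.38 ± 0.36 SE, limma adjusted p = 0.0190), and the call was lost without matured 1 or matured 2 (limma adjusted p = 0.0675 and 0.0610). The size depends on the pseudocount, with -3.45 at a pseudocount of 0.1. Since mmp21 reached 1 FPKM in pre-matured libraries alone, the filter fixed its direction and separation, and its call is no support.

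The gene mmp23bb, one of a pair of copies of the MMP23 protease, read 0.720, 1.36 and 0.931 FPKM in the matured libraries and 4.59, 12.5 and 1.75 FPKM in the pre-matured libraries (log2 fold change -1.57 ± 0.52 SE, limma adjusted p = 0.0484). Its call was lost with TPM, the reduced totals, voom and no filter (limma adjusted p = 0.0606 to 0.0942), and without any 1 library other than pre-matured 3 (limma adjusted p = 0.0836 to 0.130). The second copy, mmp23ba, chosen after its values were seen, read 0.772, 4.38 and 2.41 FPKM in the matured libraries and 6.55, 8.56 and 4.60 FPKM in the pre-matured libraries. It missed the threshold (log2 difference -1.21, limma adjusted p = 0.0526), and passed with quantile normalization, median-ratio scaling and voom (limma adjusted p = 0.0208 to 0.0357). Copies of one gene can share reads, and the treatment of such reads is a point not given in the sources used here. This also holds for col1a1a and col1a1b and for serpinh1a and serpinh1b.

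Of 8 tested ADAMTS proteases and ADAMTS-like proteins, 3 rose and none fell, against 23.4% higher and 10% lower of all genes tested. The direction of 1 of the 3, adamts10, was fixed by the filter, since it reached 1 FPKM in matured libraries alone. With so few genes nothing particular to the family is read from this count. The gene adamtsl5 encodes a secreted protein without a protease domain that binds fibrillin microfibrils. It stood at 15.4, 13.3 and 12.7 FPKM in the matured libraries against 2.02, 1.25 and 1.99 FPKM in the pre-matured libraries, with the groups far apart. Its mean was 7.86 times as high, the largest rise among the 65 tested genes on the log2(FPKM + 1) scale (2.43 ± 0.24 SE, limma adjusted p = 0.000902). The protease adamts17 was the most abundant of the family and stood at 29.9, 15.6 and 19.98 FPKM in the matured libraries against 4.44, 4.14 and 7.05 FPKM in the pre-matured libraries. Its mean was 4.19 times as high (log2 fold change 1.86 ± 0.29 SE, limma adjusted p = 0.00307).

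The third gene, adamts10, averaged 1.68 ± 0.320 FPKM in matured and 0.536 ± 0.142 FPKM in the pre-matured libraries (SD, n = 3 each; log2 fold change 0.80 ± 0.23 SE, limma adjusted p = 0.0306). Variants of ADAMTS10 and of ADAMTS17 in people cause Weill-Marchesani syndromes, disorders of fibrillin-rich tissue. The adamts10 call was lost at a pseudocount of 0.1, with quantile normalization and with voom (limma adjusted p = 0.0525 to 0.114), and without any 1 library other than pre-matured 3 (limma adjusted p = 0.0540 to 0.0902). The family sum was 66.8, 59.9 and 58.3 FPKM in the matured libraries and 26.6, 35.3 and 32.2 FPKM in the pre-matured libraries. The fibrillin gene fbn2b was not tested and read 0.869, 0.608 and 1.10 FPKM in the matured libraries and 0.416, 2.98 and 0.618 FPKM in the pre-matured libraries, with overlap. Among the tested members that did not pass, adamts3 (a procollagen N-proteinase) averaged 11.6 ± 1.37 FPKM in matured and 14.7 ± 5.29 FPKM in the pre-matured libraries (SD, n = 3 each; limma adjusted p = 0.505). It was chosen after its values were seen.

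HSP47, the collagen-specific chaperone of the endoplasmic reticulum, is encoded by serpinh1a and serpinh1b, and the minor copy gave 1 read in the pre-matured libraries together. The gene serpinh1a read 1.39, 1.63 and 1.90 FPKM in the matured libraries, or 71, 102 and 99 reads, and 0, 0.0168 and 0 FPKM in the pre-matured libraries, a single read in all. Per depth the ratio was 294, with a 95% counting interval of 52.3 to 11649 that covers counting error only. The log2 fold change was 1.39 ± 0.22 (SE, limma adjusted p = 0.00289) on the log2(FPKM + 1) scale, which understates the change of so low a gene. Since serpinh1a reached 1 FPKM in matured libraries alone, the filter fixed its direction and separation, and its call is no support. The major copy, serpinh1b, read 13.4, 34.1 and 39.0 FPKM in the matured libraries and 24.5, 15.6 and 14.3 FPKM in the pre-matured libraries. The groups overlapped through matured 1 (log2 difference 0.55 ± 0.40 SE, limma adjusted p = 0.316), and without matured 1 the gene passed (log2 difference 1.01, limma adjusted p = 0.0443). The lysyl oxidase-like genes tested, loxl2b and loxl3b, which cross-link collagen and elastin, had log2 differences of 0.02 and -0.21 and did not pass (limma adjusted p = 0.959 and 0.653; chosen after their values were seen). Of the genes matched by symbol alone, the most abundant was itgbl1, a secreted integrin beta-like protein, at 19.7 ± 13.8 FPKM in matured and 28.6 ± 6.68 FPKM in the pre-matured libraries (SD, n = 3 each; limma adjusted p = 0.275).

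**Figure D5:**
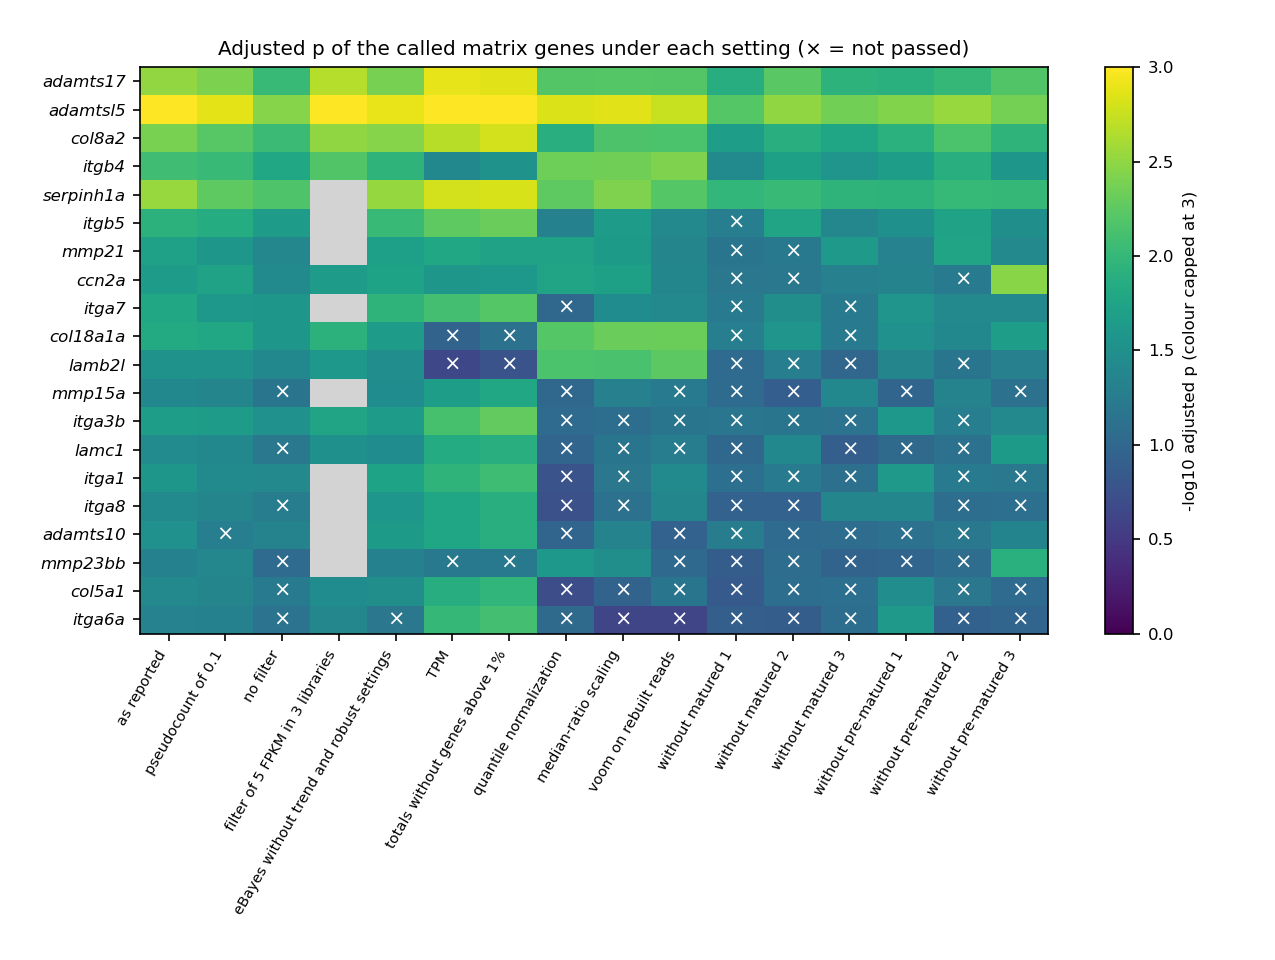
Adjusted p of the 20 called matrix genes (rows) under the reported setting and 15 alternatives (columns), as -log10 by colour; a cross marks a setting where the gene did not pass, and grey one where it was not tested. The rows of adamts17, adamtsl5, col8a2, itgb4 and serpinh1a hold no cross, while itga6a and col5a1 are crossed under most settings. The direction of serpinh1a was fixed by the filter.

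Genes that act on or beside these families were taken as lists from general knowledge. Which genes of these lists passed the filter through a single group was not counted. The filter fixes the direction of such a gene, so its call would be no support. The counts below stand against 23.4% higher and 10% lower over all genes tested, and with lists this short nothing particular to a list is read from them. Of 19 tested genes for collagen modification and secretion, 3 rose (15.8%) and 3 fell (15.8%). A member of the collagen prolyl 3-hydroxylase complex, crtap, averaged 16.4 ± 1.39 FPKM in matured and 7.94 ± 1.34 FPKM in the pre-matured libraries (SD, n = 3 each; log2 fold change 0.97, limma adjusted p = 0.00961). The crtap call was lost with voom (limma adjusted p = 0.05001). The related gene p3h4 (SC65, a scaffold for collagen lysyl hydroxylation) averaged 1.74 ± 0.470 FPKM in matured and 5.35 ± 0.912 FPKM in the pre-matured libraries (SD, n = 3 each; log2 fold change -1.21, limma adjusted p = 0.00928). The others were chosen after their values were seen. The prolyl 4-hydroxylase beta subunit gene p4hb and the collagen-cutting cathepsin gene ctsk rose, with log2 fold changes of 0.95 and 0.90 (limma adjusted p = 0.0382 and 0.0146). Without matured 2, crtap was the only gene of the list that passed as higher, so the p4hb and ctsk calls were lost. The prolyl 4-hydroxylase alpha subunit gene p4ha1a and the collagen galactosyltransferase gene colgalt1a fell, with log2 fold changes of -1.08 and -0.94 (limma adjusted p = 0.0113 and 0.0193).

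Of 11 tested receptors for matrix other than integrins, 4 were higher (36.4%) and 1 was lower (9.09%). The laminin alpha 5 receptor bcam averaged 7.97 ± 2.89 FPKM in matured and 1.10 ± 0.434 FPKM in the pre-matured libraries (SD, n = 3 each; log2 fold change 2.06, limma adjusted p = 0.00312). The heparan sulfate proteoglycan gpc3 averaged 8.44 ± 1.67 FPKM in matured and 2.48 ± 0.453 FPKM in the pre-matured libraries (SD, n = 3 each; log2 fold change 1.43, limma adjusted p = 0.00392). The gene that fell, sdc4, the syndecan of focal adhesions (chosen after its values were seen), averaged 5.30 ± 1.47 FPKM in matured and 17.8 ± 5.41 FPKM in the pre-matured libraries (SD, n = 3 each).

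Of 13 tested adaptors that link integrins to actin, 4 rose (30.8%) and 2 fell (15.4%). Log2 differences of the 13 were positive for 5 and negative for 8, with a median of -0.15. The counts were 4 higher and 0 lower with TPM, 3 and 4 with quantile normalization, and 4 and 4 with median-ratio scaling or voom. The paxillin gene pxnb averaged 10.2 ± 1.03 FPKM in matured and 3.84 ± 1.12 FPKM in the pre-matured libraries (SD, n = 3 each; log2 fold change 1.23, limma adjusted p = 0.00699). The actin cross-linker gene actn1 averaged 16.8 ± 3.14 FPKM in matured and 34.5 ± 3.98 FPKM in the pre-matured libraries (SD, n = 3 each; log2 fold change -1.002, limma adjusted p = 0.00856). The actn1 call was lost with TPM (limma adjusted p = 0.0524). Among 8 tested partners of the basement membrane, 1 rose and 2 fell. Their log2 differences ran from -1.59 to 2.70, 5 of them positive and 3 negative, with a median of 0.35. The number higher was 2 with TPM and 0 with quantile normalization, median-ratio scaling and voom, while 2 were lower in each. The genes that fell were tinagl1 (log2 fold change -1.59, limma adjusted p = 0.00999) and ntn4, a laminin-binding netrin (log2 fold change -1.29, limma adjusted p = 0.0141). The size for ntn4 depends on the pseudocount, with -2.16 at a pseudocount of 0.1. It missed the 5 FPKM filter, and whether it passed the 1 FPKM filter through the pre-matured libraries alone was not checked.

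Of 6 tested genes for latent TGF-beta binding and the YAP pathway, 2 rose and 1 fell. The transcription factor genes tead3a and tead1a, whose proteins carry YAP and TAZ to their targets, had log2 fold changes of 1.57 and 1.29 (limma adjusted p = 0.00666 and 0.0115). The gene that fell, wwtr1, encodes TAZ and was chosen after its values were seen. It averaged 4.25 ± 0.885 FPKM in matured and 10.8 ± 4.12 FPKM in the pre-matured libraries (SD, n = 3 each). The wwtr1 call was lost with TPM and the reduced totals, and without matured 1 or matured 2. No gene of this list passed as lower in those runs. Of 8 tested membrane and plasminogen proteases and inhibitors, the sheddase gene adam17b rose (log2 fold change 1.496, limma adjusted p = 0.00865) and none fell. Of 6 tested hyaluronan and proteoglycan genes, ncanb (neurocan) fell (log2 fold change -1.28, limma adjusted p = 0.0182) and none rose. The ncanb call was lost without matured 1 or matured 3 (limma adjusted p = 0.0592 and 0.0542).

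Markers of stromal and other cells were fixed as lists of symbols, and the single markers named were chosen after their values were seen. The 5 fibroblast markers summed to 16.1, 15.8 and 15.9 FPKM in the matured libraries and to 4.18, 5.14 and 8.66 FPKM in the pre-matured libraries, and 2 of 4 tested, pdgfra and twist1b, were higher, against 23.4% of all genes tested. The 6 pericyte and smooth muscle markers summed to 81.0, 119 and 98.8 FPKM in the matured libraries and to 440, 418 and 447 FPKM in the pre-matured libraries. Of that sum 91.3% was tagln, and 2 of 5 tested, tagln and acta2, were lower, against 10% of all genes tested. The other 3 did not pass. Log2 differences of the 5 were positive for 2 (at most 0.80) and negative for 3. Without overlap, matured was higher for 1 and lower for 1, against 33.3% and 15.9% of all genes tested. With TPM, 1 passed as higher and 2 as lower. Neither sum overlapped between the groups, and neither list was tested as a list.

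The 14 endothelial markers, all tested, summed to 95.7, 96.3 and 111 FPKM in the matured libraries and to 55.0, 108 and 70.7 FPKM in the pre-matured libraries, with overlap. Of the 14, 2 were higher (plvapb, the diaphragm protein of fenestrated capillaries, and esamb), against 23.4% of all genes tested. Log2 differences of the 14 were positive for 10 and negative for 4. Without overlap, matured was higher for 4 and lower for 1, against 33.3% and 15.9% of all genes tested. With TPM, 4 passed as higher. With quantile normalization or median-ratio scaling 2 were higher and 1 was lower, and with voom 1 was higher and 1 was lower. The 4 glial markers did not overlap in sum, at 71.8 to 111 FPKM in matured and 115 to 207 FPKM in the pre-matured libraries, a narrow gap. Of that sum 79.4% was fabp7b, and none of 3 tested glial markers passed. The 6 cartilage and bone markers summed to 3.53 to 6.996 FPKM in matured and 4.35 to 5.65 FPKM in the pre-matured libraries. Of 2 tested, 1 was lower, against 10% of all genes tested. The 4 skeletal muscle markers summed to 0.834 to 2.77 FPKM in matured and 0.579 to 8.48 FPKM in the pre-matured libraries, and none was tested. The part of these cell types in the matrix gene results was not tested.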

How the data were processed

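Per the labels' protocols, the RNA came from a TRIzol extraction and the libraries from an NEBNext Ultra II RNA kit. The submitters' processing notes name CASAVA 1.8. Which aligner, counter, build and annotation were used is information not given in the sources used here. Per gene and library, the authors deposited 1 FPKM value, dividing reads by gene length and library depth and correcting for nothing else that the values show. The unit was read from the values: they are not whole, and library totals run from 500088 to 713023. RPKM would look the same. Ratios of values gave whole reads, at a relative tolerance of 1e-12, for 25782 of the 25782 genes above 0 in 2 or more libraries, and these reads made up 99.3% to 99.6% of the depth. Intervals at 95% for a ratio of read sums pool the reads over the libraries of a group. They cover counting error only and leave out the spread between libraries.

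Groups follow the labels' age field, and replicate numbers follow accession order. Genes at 1 FPKM or above in 3 or more libraries (17887) went into limma 3.58.1 under R 4.3.3, using lmFit, then eBayes (trend and robust), on log2(FPKM + 1), with Benjamini-Hochberg adjustment and a threshold of 0.05. A log2 fold change is matured minus pre-matured. The alternatives were a pseudocount of 0.1, no filter, a filter of 5 FPKM, TPM, library totals that leave out genes above 1% of the total, quantile normalization, median-ratio scaling, eBayes without trend and robust settings, voom on rebuilt reads, leaving out each library in turn, adjusted p under 0.01 and a fold of at least 2. The fit was tested on simulated data. Other software was Python 3.11.15 with numpy 2.4.6, with pandas 2.3.3 and with matplotlib 3.10.9.

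The matrix genes, role groups, companion lists and marker lists were chosen by symbol with earlier results of these data known. The genes named are the called members with non-overlapping groups in every role group (at most 5 each), the most abundant tested member of each role group, the 5 largest rises and falls, and in each companion list the 2 called genes with the smallest adjusted p. Any other gene given was chosen after its values were seen.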

Additional observations from a re-analysis of the deposited data

How the results depend on the processing

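No paired analysis was possible because replicate numbers follow accession order. Of 848 values of 51 named genes under the alternatives, 686 kept direction and side of the threshold, 123 kept direction but no longer passed, 23 newly passed and 16 changed sign. This tally includes genes that did not pass as reported. For those, the cut-offs of adjusted p under 0.01 and of 2-fold could only count as unchanged. Of the 20 called matrix genes, 5 passed under every alternative run. The median log2 fold change of the matrix genes, 0.22 as reported, was 0.54 with TPM and with totals without genes above 1%, -0.013 with median-ratio scaling, -0.025 with voom, and 0.17 to 0.43 without any 1 library (0.43 without pre-matured 2). Matrix genes higher, 14 as reported, numbered 18 with TPM or the reduced totals, 8 with a 5 FPKM filter, median-ratio scaling or voom, and 5 with quantile normalization. They numbered 4 at adjusted p under 0.01 and 7 at 2-fold or more. Without matured 1, 2 and 3 they numbered 5, 7 and 9, and without pre-matured 1, 2 and 3 they numbered 13, 8 and 9. Matrix genes lower, 6 as reported, numbered 8 with quantile normalization or median-ratio scaling, 3 with TPM or the reduced totals and 1 at adjusted p under 0.01. They numbered 4 with a 5 FPKM filter or at 2-fold or more. Without matured 1, 2 and 3 they numbered 1, 4 and 3, and without pre-matured 1, 2 and 3 they numbered 6, 4 and 6. Of all genes, 4184 higher and 1797 lower became 5818 and 978 with TPM, 6204 and 1041 with the reduced totals, and 1928 and 744 at adjusted p under 0.01. They became 3027 and 2737 with quantile normalization, and 3228 and 2727 with median-ratio scaling. With a 5 FPKM filter 2714 were higher, and at 2-fold or more 1116 were lower. Without any 1 library, 2697 to 3910 of all genes were higher and 1052 to 1661 were lower, both lowest without matured 1. The cause of these shifts was not tested.

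The sign changes were in genes that did not pass as reported. With median-ratio scaling and with voom, the log2 difference was -0.090 and -0.11 for fbln2, -0.16 and -0.17 for sparc, -0.028 and -0.045 for col13a1, and -0.10 and -0.16 for col4a6, which was -0.28 with quantile normalization. It was 0.15 for lamb1a with TPM and with the reduced totals. Without any 1 library, fbln2 ran from -0.21 (without pre-matured 2; -0.20 without matured 3) to 0.38, sparc from -0.057 (without pre-matured 1) to 0.19, col4a6 from -0.093 (without matured 1) to 0.23 and itgb2 from -1.45 to 1.27 (without matured 3). Depth limits what can be said of the 41 matrix genes under 1 FPKM everywhere.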

Other observations

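Some matrix genes that missed the filter were high in a single library. They were chosen after their values were seen and were not tested. The collagen XXVIII gene col28a1b read 1.74, 0.589 and 26.3 FPKM in the matured libraries and 0, 0.101 and 0 FPKM in the pre-matured libraries. These values rest on 118, 49 and 1811 reads in matured libraries and on 0, 8 and 0 reads in pre-matured ones. The collagen X gene col10a1b, known from cartilage in mammals, was also highest in matured 3, at 0.0221, 0.235 and 6.28 FPKM in the matured libraries and 0, 1.09 and 0 FPKM in the pre-matured libraries. The membrane-anchored metalloproteinase mmp17a reached 8.09 FPKM in matured 2, against 0.158 and 0.898 FPKM in the other matured libraries and 0.165 to 0.616 FPKM in the pre-matured libraries. The SPARC-like gene sparcl1 reached 5.14 FPKM in matured 2, was listed at 0 in the other matured libraries and read 0.517 to 1.30 FPKM in the pre-matured libraries.

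Other genes that missed the filter read higher or lower in matured libraries, and they too were picked by their values. The gelatinase gene mmp9 read 0.839, 0.548 and 0.898 FPKM in the matured libraries (35, 28 and 38 reads) and 0.159, 0.124 and 0 FPKM in the pre-matured libraries (8, 6 and 0 reads). The stromelysin gene mmp11a read 1.22, 0.621 and 1.10 FPKM in the matured libraries and 0.0140, 0 and 0.0595 FPKM in the pre-matured libraries. The biglycan gene bgnb read 2.99, 2.80 and 0.868 FPKM in the matured libraries and 0, 0.379 and 0.562 FPKM in the pre-matured libraries. In the other direction, mmp20b was listed at 0 in all matured libraries and read 0, 1.03 and 3.80 FPKM in the pre-matured libraries (0, 33 and 119 reads). The hemidesmosome collagen gene col17a1b, whose protein binds integrin beta 4 in mammals, read 0.336, 0.243 and 0.559 FPKM in the matured libraries and 0.887, 0.737 and 1.24 FPKM in the pre-matured libraries. Its groups did not overlap, with matured the lower, as for 15.9% of all genes tested.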
